A study of Mus musculus with 9 samples.

Results

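Circular RNAs (circRNAs) made from the genes of the synapse and of ion channels were followed through the neurogenic lineage of the mouse embryonic cortex. A list of 54 such genes was split by role into 19 presynaptic genes, 17 postsynaptic genes and 18 genes of ion channels, pumps and exchangers. All circRNAs of these genes in the count table were taken, with the parental gene read from the study's circRNA catalogue for 23 circRNAs and from the same-strand mm9 gene (GENCODE vM1) containing the interval for 27. This gave 50 of the 5281 circRNAs, from 25 of the 54 genes: 21 circRNAs of 9 presynaptic genes, 14 of 7 postsynaptic genes and 15 of 9 channel genes. The other 29 genes had no circRNA in the table used here.

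The libraries came from the lateral cortex of C57BL/6 embryos at embryonic day 14.5 that carried the Btg2-RFP and Tubb3-GFP reporters, each heterozygous. Proliferative progenitors (PP) were sorted as RFP-/GFP- cells, differentiative progenitors (DP) as RFP+/GFP- cells, and newborn neurons (N) as GFP+ cells whatever their RFP. Each cell type had 3 libraries from biological replicates, and total RNA of every library was digested with RNase R, an exonuclease that degrades linear RNA, before sequencing. The cell types rest on the Btg2 and Tubb3 promoters that drive the reporters, so that PP were defined by the absence of both colours.

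A circRNA forms when the end of an exon is spliced back to the start of an exon upstream or of the same exon, which leaves a back-splice junction and no free ends. In neurons, presynaptic proteins dock, prime and fuse vesicles at the active zone, glutamate receptors and their scaffolds receive the signal, and channels, pumps and exchangers set membrane potential and cytosolic calcium. Genes of the synapse are often long, and brain tissue is known to be rich in circRNAs derived from them.

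Junction sequences of the circRNAs on which the results turn are printed first, to show which circles of a gene use a common splice site. Each is given 5′ to 3′ on the transcribed strand, read from the mm9 genome at the interval of the count table, with the last 25 bases of the circle's final exon in lower case and the first 25 bases of its first exon in capitals. The Slc8a1 circRNA of the longest interval is the one the set was built around.
Slc8a1 circ_002846, chr17:81788150-81844933, minus strand: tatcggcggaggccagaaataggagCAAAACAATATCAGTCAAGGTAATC
Slc8a1 circ_002847, chr17:81807407-81844933, minus strand: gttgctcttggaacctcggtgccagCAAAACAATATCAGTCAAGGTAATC
Slc8a1 circ_002848, chr17:81827522-81844933, minus strand: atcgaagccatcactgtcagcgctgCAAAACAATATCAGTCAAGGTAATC
Cadps circ_001777, chr14:13272385-13286833, minus strand: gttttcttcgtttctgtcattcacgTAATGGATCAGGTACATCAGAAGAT
Cadps circ_001778, chr14:13272385-13299693, minus strand: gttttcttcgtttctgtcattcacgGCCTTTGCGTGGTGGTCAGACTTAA
Cadps circ_001779, chr14:13272385-13306029, minus strand: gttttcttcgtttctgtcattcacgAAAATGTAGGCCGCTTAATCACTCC
Erc1 circ_005301, chr6:119672191-119693499, minus strand: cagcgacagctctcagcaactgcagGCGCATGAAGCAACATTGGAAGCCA
Erc1 circ_005302, chr6:119693306-119693499, minus strand: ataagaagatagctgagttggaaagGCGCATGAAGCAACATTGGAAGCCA
Gria2 circ_004116, chr3:80525954-80536156, minus strand: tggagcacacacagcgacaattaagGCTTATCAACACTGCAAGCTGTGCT
Gria2 circ_004117, chr3:80535960-80545120, minus strand: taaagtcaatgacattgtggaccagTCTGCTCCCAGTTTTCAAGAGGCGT
Grik2 circ_000578, chr10:49243488-49298108, minus strand: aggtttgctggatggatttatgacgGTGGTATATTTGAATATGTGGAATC
Cacna2d1 circ_005013, chr5:15805747-15833862, plus strand: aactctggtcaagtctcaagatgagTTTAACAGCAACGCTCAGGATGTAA
All 3 Slc8a1 circles began at the same exon start and differed in the exon that closed them. The 3 Cadps circles shared the closing exon end and differed in where they began, and both Erc1 circles had the same first exon. All 50 circRNAs had ends at annotated exon ends, with AG before the first base and GT after the last base on the genome.

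Reads had been counted over the interval's exons and not at the junction alone, and the counted length matched the exons (plus 1 base for each) in 45 of the 50 circRNAs. It did not for Dlgap4, which was counted over the whole interval, Erc1 circ_005301, Rims2 circ_002065, and Slc8a1 circ_002846 and circ_002847. CircRNAs of a gene that overlap can thus share reads, though how a read that lies in several of them was assigned is not given in the sources used here. Of the 50 circRNAs, 22 overlapped another of the same gene, and the 50 fell into 37 intervals with no overlap between them. Whether residual linear RNA contributed to the counts was not tested.

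Library totals ranged from 2962787 to 8015311 counts, and 17 entries of the table held most of them, so that only 100911 (PP replicate 3) to 383663 (DP replicate 3) counts fell on all others. After TMM scaling, 1 count was worth 0.113 to 0.465 CPM (counts scaled to a common library size of 1e6), and the limit that a count of 0 allows (3 counts) lay between 0.340 CPM in DP replicate 1 and 1.39 CPM in PP replicate 3. N replicate 1 stood apart with the lowest scaling factor, 0.391. Its CPM was the highest of the 3 N libraries for 15 of the 50 circRNAs (30.0%) and the lowest for 25 (50.0%). Over all circRNAs of the table it was the highest for 41.2% and the lowest for 42.2%. The summed circRNAs of genes listed as markers of the sorted types followed the labels. The 21 circRNAs of 7 of 18 progenitor markers summed to 409 to 514 CPM in PP. They gave 208 to 248 CPM in DP and 65.6 to 83.7 CPM in N. Of 12 genes listed for differentiative progenitors, 2 (Mfng and Elavl4) had circRNAs. These summed to 57.0 to 63.7 CPM in DP and at most 38.1 CPM elsewhere. How specific these 2 genes are to DP was not tested. The 24 circRNAs of 7 of 17 newborn neuron markers summed to 35.8 to 57.2 CPM in PP. They gave 103 to 156 CPM in DP, already above PP, and 551 to 842 CPM in N. Btg2 and Tubb3 themselves had none in the table used. Of 12 interneuron markers, only Erbb4 had circRNAs (3), which summed to at most 2.32 CPM in PP, at most 0.248 CPM in DP and 3.43 to 6.75 CPM in N, where they moved with the higher levels described below, and their part in these was not tested. No endothelial and mural, microglia and macrophage, or meningeal and fibroblast marker had a circRNA in the table, and the single erythroid marker with one, Tfrc, went from 2.32 to 3.90 CPM in PP to 0.980 to 1.77 CPM in N (log2 FC -1.26 ± 0.41, adjusted p = 0.0313).

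Levels of the set were highest in N. Summed over the 50 circRNAs, where reads of overlapping circles may count more than once, the level was 89.4 ± 5.39 CPM in PP (SD, n = 3), 108 ± 20.1 CPM in DP and 286 ± 54.3 CPM in N. Per library the sum was 84.7, 88.3 and 95.3 CPM in PP, 94.3, 98.1 and 131 CPM in DP, and 347, 243 and 268 CPM in N. The N libraries were all above the others, and the ranges of PP and DP overlapped. N replicate 1 was the highest, with 170 of its 347 CPM from Dlgap4, which gave 59.7 and 75.8 CPM in N replicates 2 and 3. In these bulk samples a higher level in more cells and a higher level in each cell cannot be told apart.

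By role, the presynaptic sum went from 23.3 ± 1.11 CPM in PP to 31.0 ± 5.70 CPM in DP and 63.2 ± 9.44 CPM in N. The postsynaptic sum was 50.5 ± 2.45, 58.1 ± 11.2 and 153 ± 47.6 CPM in the same order, of which Dlgap4 alone gave a mean of 21.3, 27.4 and 102 CPM. The channel sum was 15.6 ± 2.74, 18.7 ± 4.20 and 69.5 ± 15.4 CPM. Divided by counted length, the median circRNA of the set had 2.38 RPKM in PP, 3.09 RPKM in DP and 6.68 RPKM in N, beside 6.91, 6.37 and 6.15 RPKM for all circRNAs of the table. In PP the set thus lay below the table's median, and in N it lay at a like level.

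**Figure D1:**
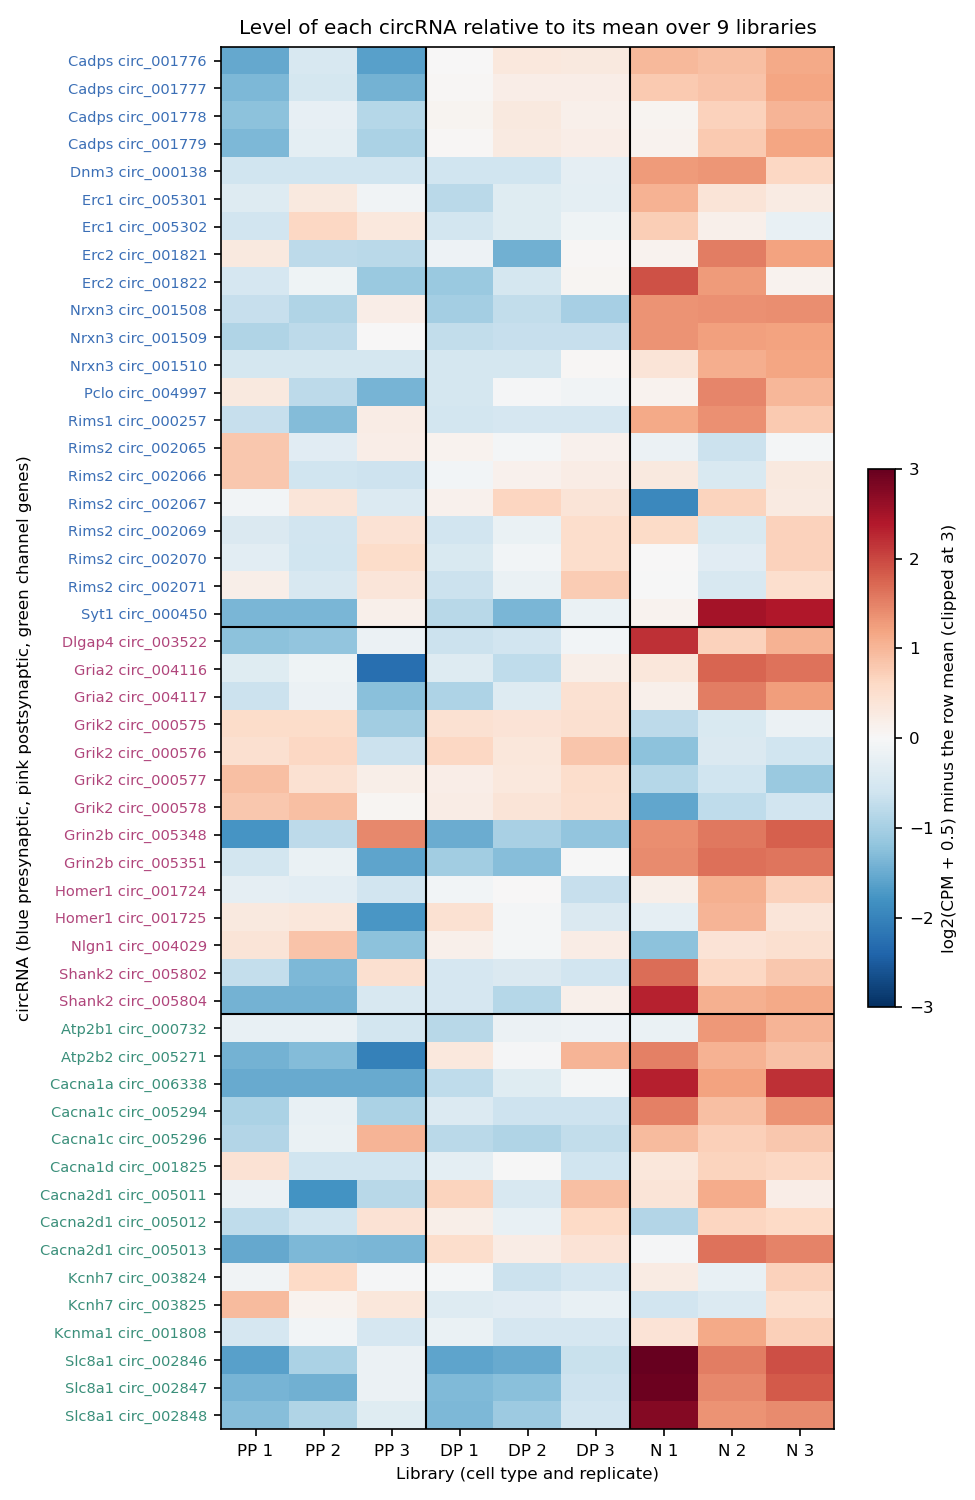
Levels of the 50 circRNAs (rows, by role) in the 9 libraries (columns), as log2(CPM + 0.5) minus the mean of the row, clipped at 3. In 27 rows all 3 N libraries are above all 3 PP libraries, in 2 rows, of Grik2, they are below, and the 6 Rims2 rows have no common pattern.

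Between N and PP, the question was which circRNAs of synapse and channel genes differ between neurons and the progenitors that do not yet make neurons. In 27 of the 50 circRNAs, from 17 genes, all 3 N libraries were above all 3 PP libraries, or 54%, where 16.9% of all circRNAs of the table were so separated. The opposite order held for 2 of the 50, beside 18.5% of the table. The genes were chosen with earlier results of these data known, so the shares of the set in all 3 comparisons can depend on that choice. Of the 50, 34 passed the filter on low counts and were tested with edgeR's quasi-likelihood test, and 20 of these, from 12 genes, were higher in N (13.6% of all 4406 circRNAs tested), 2 were lower (14.4%) and 12 did not pass an adjusted p of 0.05. Since the filter keeps circRNAs that are high in a single cell type, the fit was also made on all 5281 circRNAs: 30 of the 50 were then higher in N (13.2% of the table) and 2 lower (13.8%). The median log2 fold change (FC) of the 34 was 1.64, beside -0.10 for all circRNAs tested. Scaling by total counts, which moved the latter to -0.37, left 8 of the 34 higher (4.79% of those tested) and 0 lower (9.94%). The 20 circRNAs higher in N lay in 14 separate intervals. Of the 42 calls made on the set in the 3 comparisons, 13 held under total counts and every other alternative that could be fitted: the 6 of Slc8a1, both of Cacna1a, those of Atp2b2, Cacna2d1 circ_005013, Dlgap4 and Shank2 circ_005804 against PP, and that of Grin2b circ_005348 against DP. Each of the other 29 was lost with total counts. The 3 Slc8a1 circles lie in 1 interval and can share reads, so that their 6 calls are not independent of each other.

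Between N and DP, the step at which progenitors leave the cell cycle, all 3 N libraries were above all 3 DP libraries in 27 of the 50 circRNAs (17.4% of the table) and below them in 5 (20.5%). Of the 34 tested, 15 of 11 genes were higher in N (9.03% of those tested) and 3, all of Grik2, were lower (9.80%). Without the filter 26 of the 50 were higher (8.56%) and 3 lower (9.39%). The count of 15 was 24 without PP replicate 3, where 617 of 4693 circRNAs tested were higher. It was 9 without N replicate 2 (334 of 4581) or N replicate 3 (276 of 4583). The count of 3 was 1 without DP replicate 2 (323 of 4618 tested were lower), N replicate 2 (334 of 4581) or N replicate 3 (298 of 4583). It was 0 without DP replicate 3 (348 of 4640). With total counts, 5 were higher (1.91%) and 0 lower (7.33%). Between DP and PP, 2 of the 34 were higher in DP (1.48% of those tested) and 0 were lower (0.386%), with 9 of the 34 at an unadjusted p under 0.05 in either direction (11.4% of those tested). DESeq2 called 2 higher (84 of 5281 over the table). With total counts 0 were called (21 higher over all tested), as with the replicate block (43). The same held without PP replicate 1 (39), PP replicate 2 (32), DP replicate 1 (37) or DP replicate 3 (36). All 3 DP libraries were above all 3 PP libraries in 7 of the 50 (10.1% of the table) and below them in 1 (8.75%). The comparisons share libraries, so that their calls are not independent of each other.

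**Figure D2:**
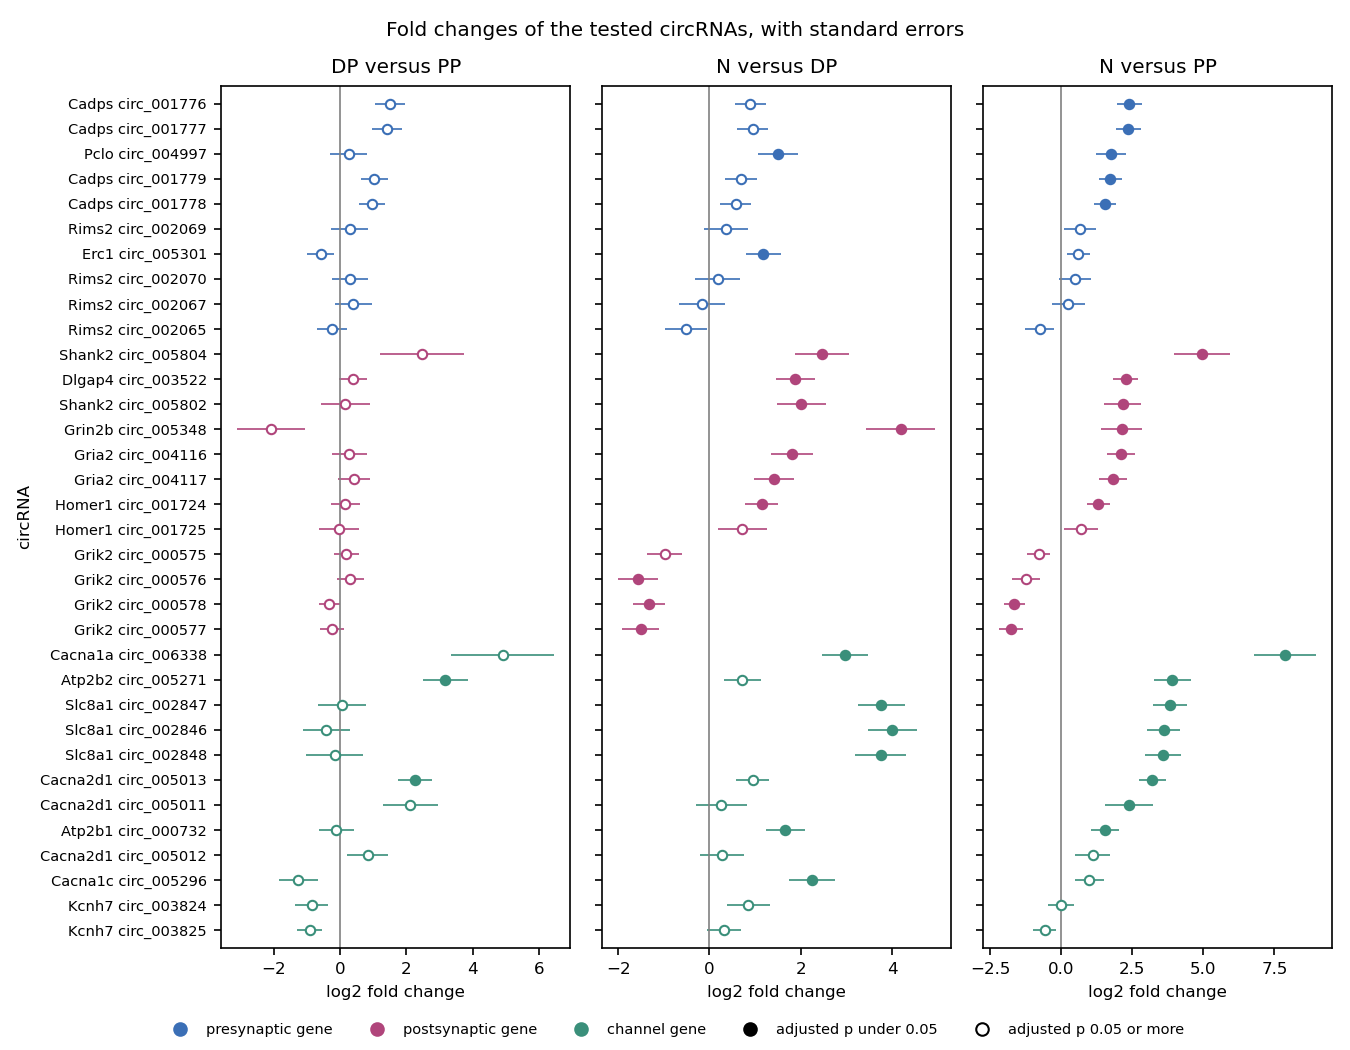
Fold changes (log2, points, with standard errors as bars) of the 34 tested circRNAs in the 3 comparisons, coloured by role, filled where the adjusted p was under 0.05. Filled points are 2 between DP and PP, 18 between N and DP and 22 between N and PP, and the Cacna1a values against PP depend on the prior count because all PP libraries are at 0.

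Among the presynaptic genes, Cadps, which encodes a protein that primes dense-core vesicles for calcium-triggered release, gave 4 circRNAs, all higher in N than in PP. In the exon numbers of the matching GENCODE transcript, the circle of exons 18 to 25 (circ_001779) had 1.30, 3.23 and 1.86 CPM in PP, 4.19, 5.06 and 4.72 CPM in DP, and 4.43, 7.45 and 9.96 CPM in N. All DP and N libraries were above all PP libraries, whereas N replicate 1 lay within the DP range. The log2 FC was 1.73 ± 0.41 (SE) for N versus PP (edgeR quasi-likelihood test, Benjamini-Hochberg adjusted p = 0.00527) and 1.03 ± 0.41 for DP versus PP, which did not pass (adjusted p = 0.3).

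The Cadps circle of exons 19 to 25 (circ_001778) had 1.30, 3.07 and 1.86 CPM in PP, 3.96, 4.69 and 4.22 CPM in DP, and 3.99, 6.40 and 8.17 CPM in N, and was 1.54 ± 0.39 higher in N than in PP on the log2 scale (adjusted p = 0.00880). The circle of exons 22 to 25 (circ_001777) had 0.519, 1.29 and 0.465 CPM in PP, 2.15, 2.47 and 2.48 CPM in DP, and 3.99, 4.19 and 5.39 CPM in N, with no overlap between any pair of cell types and a log2 FC of 2.36 ± 0.44 for N versus PP (adjusted p = 0.000970). Exons 22 to 27 (circ_001776) gave 2.40 ± 0.44 (adjusted p = 0.000875). All 4 calls held when any 1 library was left out and were lost with total counts, where the adjusted p ranged up to 0.304. The 4 circles share exons 22 to 25.

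Erc1, which encodes an ELKS scaffold of the active zone, gave the circRNAs of highest RPKM among presynaptic genes. The longer circle (circ_005301) had 1.82, 3.23 and 2.32 CPM in PP, 1.25, 1.85 and 1.99 CPM in DP, and 5.76, 3.49 and 3.10 CPM in N. It was highest in N replicate 1, and all N libraries were above all DP libraries. The log2 FC for N versus DP was 1.18 ± 0.38 (adjusted p = 0.0418), a call that was lost without any 1 of the DP or N libraries, with DESeq2, with total counts and with the replicate block (adjusted p up to 0.647). The circle of the first exon alone (circ_005302) had 0.779, 2.43 and 1.86 CPM in PP, 0.793, 0.987 and 1.24 CPM in DP, and 2.66, 1.63 and 1.14 CPM in N, was left out by the filter and overlapped between all cell types.

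Rims2, which encodes a scaffold that tethers vesicles and calcium channels at release sites, held the largest number of circRNAs (6), in 3 separate intervals of the locus on chromosome 15. The interval of circ_002065, like those of Rims1 circ_000257 and Nrxn3 circ_001509, differs between the count table, which was used here, and the study's catalogue. None of the 4 that passed the filter was called in any comparison, and their log2 FC for N versus PP ranged from -0.76 (circ_002065) to 0.66 (circ_002069). The circle nearest the gene's start, circ_002065, had 3.12, 1.13 and 1.86 CPM in PP, 1.70, 1.48 and 1.74 CPM in DP, and 1.33, 0.814 and 1.47 CPM in N. Its N libraries were all below its DP libraries, with a log2 FC of -0.51 ± 0.46 (adjusted p = 0.525). The 3 nested circles at the far end (circ_002069, circ_002070 and circ_002071) had mean levels of 1.74, 1.69 and 1.41 CPM in PP and 2.6, 2.05 and 1.42 CPM in N. With these standard errors, of 0.46 to 0.59 for N versus DP and N versus PP, a change of 1 on the log2 scale can go undetected.

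**Figure D3:**
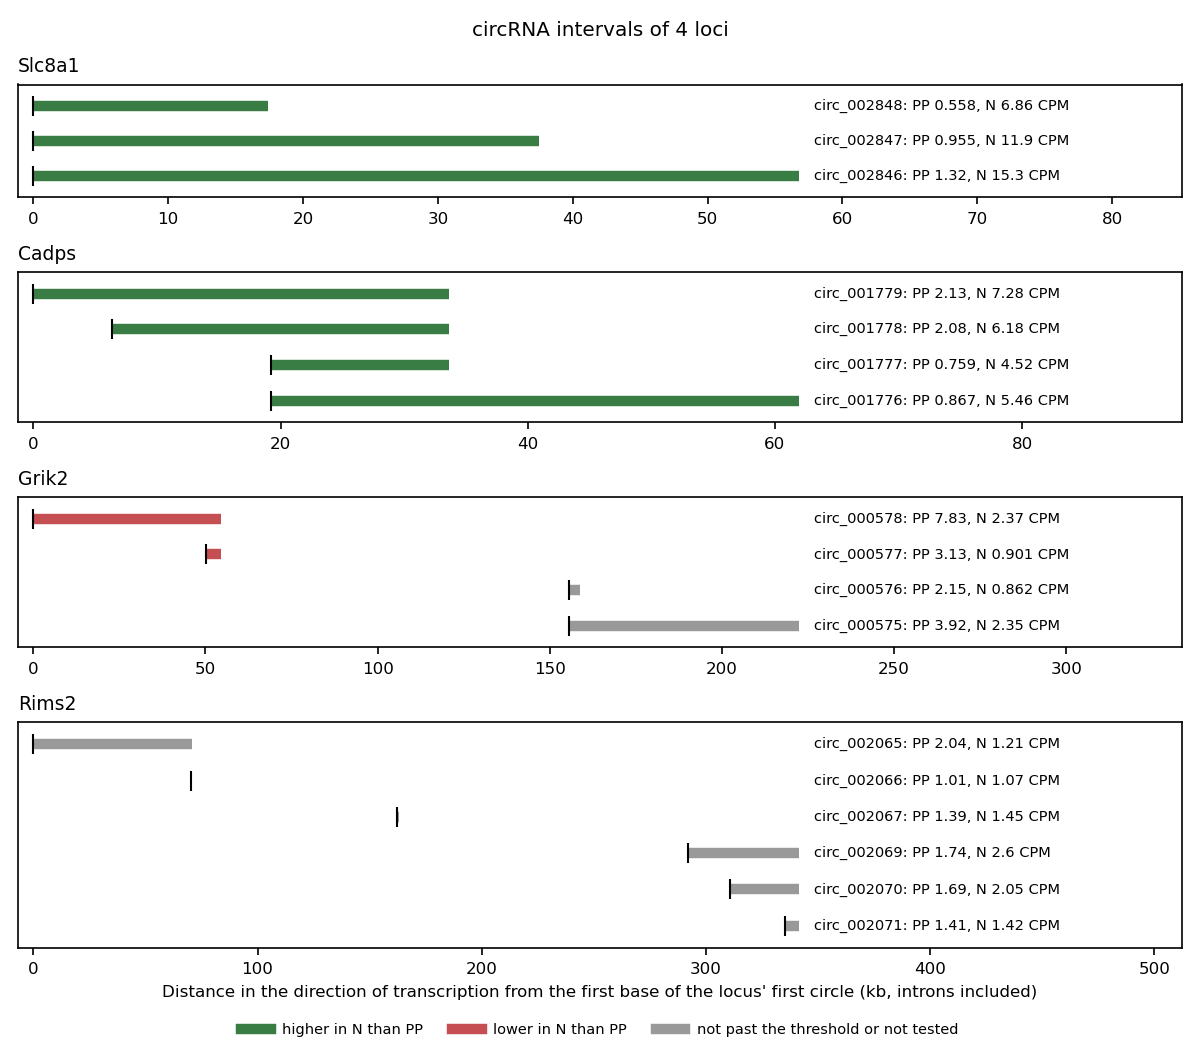
Intervals of the circRNAs of Slc8a1, Cadps, Grik2 and Rims2, as distance in kb from the first base of the locus' first circle in the direction of transcription, introns included, with a tick at the start of each circle, colour for the call between N and PP, and the mean CPM in PP and N. Circles that overlap share a start in Slc8a1 and an end in Rims2. In Cadps and Grik2 some share an end, while circ_001776 and circ_001777 of Cadps and circ_000575 and circ_000576 of Grik2 share a start. The intervals of circ_002066 and circ_002067 are shorter than the tick.

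Pclo, which encodes the active zone protein piccolo, was counted as a single large exon (circ_004997) with 2.6, 0.970 and 0.465 CPM in PP, 1.25, 1.97 and 1.86 CPM in DP, and 2.22, 6.52 and 4.57 CPM in N. The N range lay above that of DP and overlapped that of PP, in N replicate 1 and PP replicate 1. For N versus PP the log2 FC was 1.76 ± 0.52 (adjusted p = 0.0192, lost without PP replicate 2 or N replicate 2 and with only the 2 cell types fitted) and 1.5 ± 0.44 for N versus DP (adjusted p = 0.0291, lost without any DP library and without N replicate 2 or N replicate 3). Both calls were lost with the replicate block.

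The other presynaptic circRNAs, of Nrxn3, Rims1, Syt1, Dnm3 and Erc2, were left out by the filter, with low counts in PP and DP and fewer than 10 counts in N replicate 1. The vesicle calcium sensor Syt1 (circ_000450) had counts of 0, 0 and 2 in PP, 2, 0 and 5 in DP, and 2, 58 and 39 in N. Nearly all of the N counts were in replicates 2 and 3, N replicate 1 having 0.886 CPM beside 6.75 and 6.37 CPM. The neurexin gene Nrxn3, whose product joins the presynaptic membrane to postsynaptic partners, had 3 circles in separate intervals, and circ_001508 had 0.260, 0.162 and 0.930 CPM in PP, 0.113, 0.247 and 0.124 CPM in DP, and 2.66, 2.68 and 2.78 CPM in N. Its N libraries were close to each other and above all others, as were those of circ_001509, at 3.10, 2.79 and 2.78 CPM in N and at most 0.930 CPM elsewhere. The dynamin gene Dnm3 (circ_000138) had 0 counts in all PP libraries and 1.33, 1.40 and 0.653 CPM in N, which made it at least 4.58-fold higher in N than the limit of 3 counts over the PP libraries allows. In the fit without the filter, 10 of the 16 circRNAs left out were higher in N than in PP, from 8 genes, and 11 were higher in N than in DP. Of all 875 circRNAs left out by the filter, 10.1% and 8.57% were so called.

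Among the postsynaptic genes, Dlgap4, which encodes a scaffold that links the receptors' anchoring proteins to Shank proteins, had the highest CPM of the set. Its circRNA (circ_003522) had 15.3, 16.0 and 32.5 CPM in PP, 23.3, 24.4 and 34.5 CPM in DP, and 170, 59.7 and 75.8 CPM in N. N replicate 1 was more than the other N libraries together, and all N libraries were above all others. Its log2 FC was 2.27 ± 0.44 for N versus PP (adjusted p = 0.00148) and 1.88 ± 0.43 for N versus DP (adjusted p = 0.00638), and both calls held without any 1 library, the second being lost with total counts (adjusted p = 0.128). The counted length, 3523 bases, was that of the whole interval, introns included, whereas the exons of the matching transcript hold 864 bases. Its RPKM is thus relative to the longer length, and its counts, CPM and calls can include reads from introns. The paper detected no introns in the circRNAs it cloned and proposes that intron reads may come from lariats. The part of such reads in the Dlgap4 level was not tested. The Dlgap4 circRNA was also the only one of the set with at least 10 counts in every library.

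Gria2 encodes the AMPA receptor subunit that limits calcium entry, and its circRNAs shared 1 exon. Exons 4 to 6 (circ_004116) had 3.12, 3.72 and 0.465 CPM in PP, 3.06, 2.22 and 4.72 CPM in DP, and 5.32, 15 and 13.7 CPM in N, and exons 3 and 4 (circ_004117) had 3.12, 4.53 and 1.86 CPM in PP, 2.49, 3.82 and 7.33 CPM in DP, and 5.76, 15.9 and 13.1 CPM in N. N replicate 1 was the lowest N library in each, and for circ_004117 it lay within the DP range. The log2 FC for N versus PP was 2.10 ± 0.50 (adjusted p = 0.00595) and 1.82 ± 0.48 (adjusted p = 0.0101), and both calls held without any 1 library. For N versus DP it was 1.82 ± 0.46 (adjusted p = 0.0115) and 1.41 ± 0.44 (adjusted p = 0.0362), and both of these were lost without DP replicate 1, DP replicate 2, N replicate 2 or N replicate 3. With total counts none of the 4 Gria2 calls passed.

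Grik2, which encodes a kainate receptor subunit, was the only gene of the set with circRNAs called lower in N. Exons 3 to 7 (circ_000578) had 8.83, 9.54 and 5.11 CPM in PP, 5.78, 6.54 and 7.08 CPM in DP, and 1.33, 2.68 and 3.10 CPM in N. The N libraries were below all others and PP overlapped DP. The log2 FC was -1.65 ± 0.36 for N versus PP (adjusted p = 0.00341), which held without any 1 library, and -1.33 ± 0.35 for N versus DP (adjusted p = 0.0157), which was lost without DP replicate 2, DP replicate 3 or N replicate 2. The nested circle of exons 6 and 7 (circ_000577) gave -1.76 ± 0.43 and -1.51 ± 0.41 in the same comparisons (adjusted p = 0.00707 and 0.0180). Its call against PP held without any 1 library. Its call against DP was lost without DP replicate 2, DP replicate 3 or N replicate 3. In a separate part of the locus, exons 8 and 9 (circ_000576) gave -1.56 ± 0.44 for N versus DP (adjusted p = 0.0223). This call was lost without DP replicate 1, DP replicate 3, N replicate 2 or N replicate 3. For N versus PP the same circle gave -1.25 ± 0.49, which did not pass (adjusted p = 0.0705). Exons 8 to 11 (circ_000575) passed in neither, with -0.98 ± 0.38 for N versus DP and -0.79 ± 0.41 for N versus PP. The sign was negative for all 4 circles in both comparisons, and none of the calls passed with total counts.

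The scaffold gene Shank2 gave 2 circRNAs in separate intervals, the further one (circ_005804) with 0, 0 and 1 counts in PP, 4, 2 and 8 in DP, and 14, 20 and 15 in N. The ratio of N to PP was 35.2, with a counting interval of 6.03 to 1420 (95%), which covers counting error only. In CPM its N libraries were at 6.21, 2.33 and 2.45, with N replicate 1 the highest, and all were above the other cell types. Its log2 FC for N versus DP was 2.46 ± 0.59 (adjusted p = 0.00871, lost without DP replicate 2), and circ_005802 gave 2.01 ± 0.54 (adjusted p = 0.0170, lost without any DP library) and, against PP, 2.17 ± 0.65 (adjusted p = 0.0226, lost without PP replicate 1 or PP replicate 2).

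The NMDA receptor subunit gene Grin2b gave circ_005348, with 0, 0.485 and 4.18 CPM in PP, 0.113, 0.370 and 0.248 CPM in DP, and 3.99, 4.65 and 5.39 CPM in N. PP replicate 3 was level with the N libraries, and the others of PP were near DP. The log2 FC was 4.19 ± 0.76 for N versus DP (adjusted p = 0.00132, held without any 1 library), and 2.12 ± 0.71 for N versus PP (adjusted p = 0.0391), a call that held only without PP replicate 3 or N replicate 1 among the analyses that left out 1 library, and that was lost with DESeq2 and with only the 2 cell types fitted. Of the circRNAs of Homer1, whose product ties receptors to the scaffold, the one of exons 2 to 5 (circ_001724) was higher in N than in PP, by 1.31 ± 0.41 (adjusted p = 0.0275, lost without PP replicate 1, PP replicate 2, N replicate 2 or N replicate 3, with DESeq2 and with only the 2 cell types fitted), and than in DP, by 1.15 ± 0.36 (adjusted p = 0.0388, lost in all but 2 of the 9 analyses that left out 1 library, with DESeq2 and with the replicate block). The one of exons 6 to 8 (circ_001725) had 0.69 ± 0.61 for N versus PP (adjusted p = 0.453). Nlgn1, encoding a postsynaptic partner of neurexins, had at most 10 counts in any library and means of 0.885, 0.760 and 0.730 CPM in PP, DP and N.

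**Figure D4:**
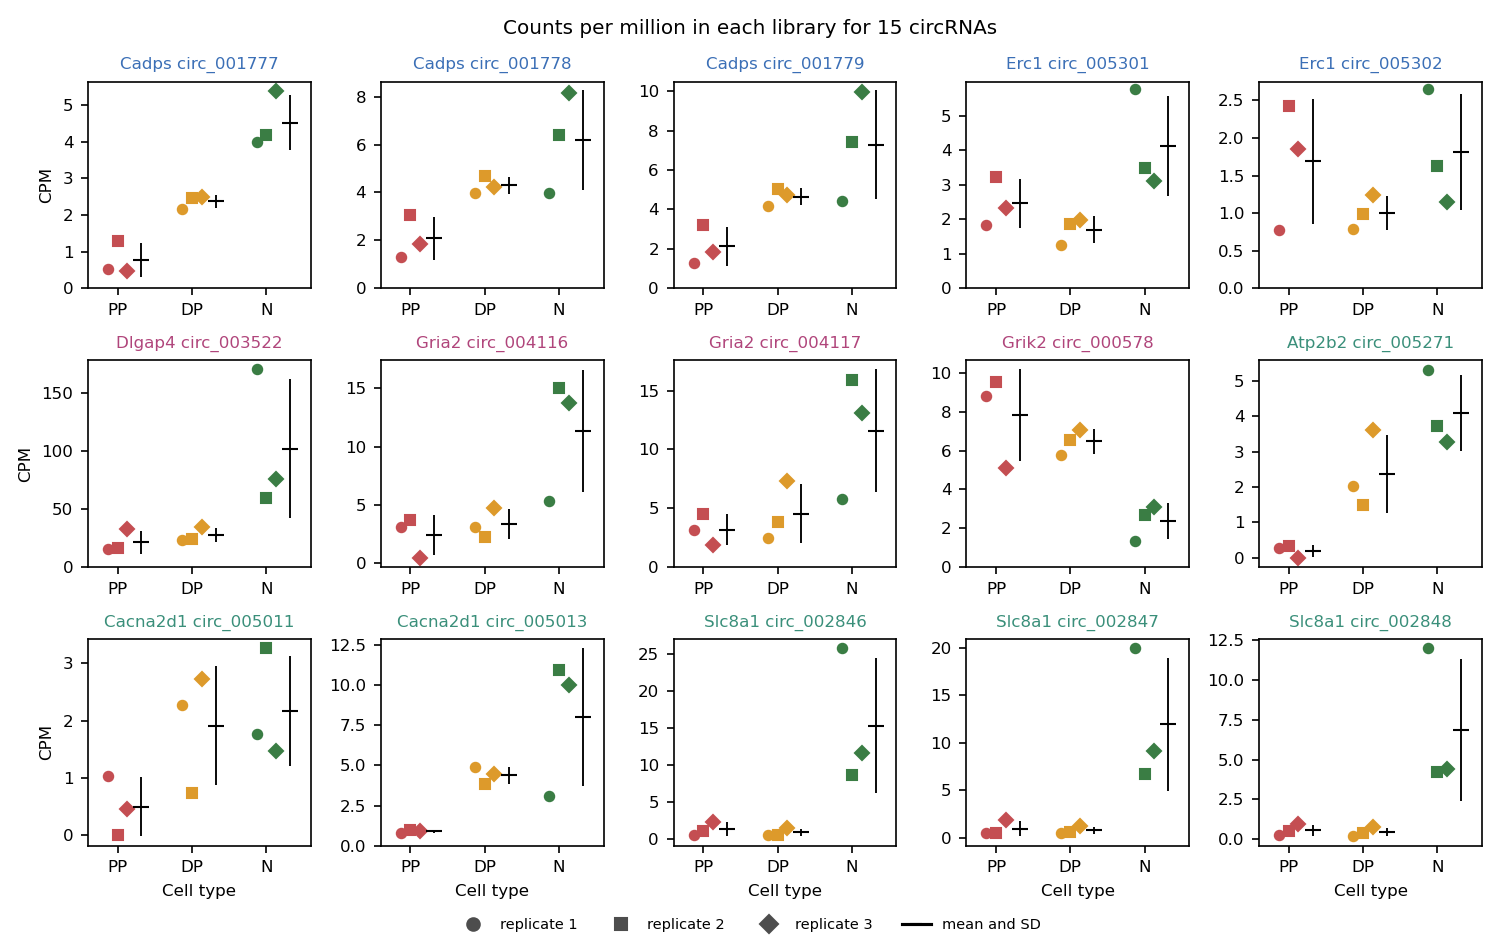
CPM in each library of 15 circRNAs, by cell type (points shaped by replicate, with the mean and SD beside them, each panel on its own scale). N replicate 1 is the highest N library for Slc8a1, Dlgap4, Erc1 and Atp2b2 and the lowest for Gria2, Cadps, Grik2 circ_000578 and Cacna2d1 circ_005013.

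Among the channel, pump and exchanger genes, Slc8a1, which encodes the plasma membrane sodium-calcium exchanger that removes calcium from the cytosol, rose from DP to N, with no call between PP and DP. The longest of its 3 circles (circ_002846) had 0.519, 1.13 and 2.32 CPM in PP, 0.566, 0.617 and 1.49 CPM in DP, and 25.7, 8.61 and 11.6 CPM in N. This is a mean of 1.32 ± 0.918 CPM in PP (SD, n = 3), 0.891 ± 0.520 CPM in DP and 15.3 ± 9.13 CPM in N, or 11.5-fold over PP and 17.2-fold over DP. N replicate 1 was the highest, and all N libraries were above all others. The log2 FC was 3.60 ± 0.58 for N versus PP (adjusted p = 0.000303) and 4.01 ± 0.53 for N versus DP (adjusted p = 0.000131). For DP versus PP it was -0.41 ± 0.70 (adjusted p = 0.892), an error that can leave a change of 1 in either direction undetected.

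The Slc8a1 circle that closed at the middle exon end (circ_002847) had 0.519, 0.485 and 1.86 CPM in PP, 0.566, 0.617 and 1.24 CPM in DP, and 19.9, 6.75 and 9.15 CPM in N. The shortest (circ_002848) had 0.260, 0.485 and 0.930 CPM in PP, 0.227, 0.370 and 0.745 CPM in DP, and 12, 4.19 and 4.41 CPM in N. N replicate 1 was the highest library in both, as in the longest, which contains them. They were 12.5-fold and 12.3-fold higher in N than in PP, with log2 FC of 3.83 ± 0.59 and 3.58 ± 0.64 (adjusted p = 0.000243 and 0.000768). All 6 calls of the 3 circles against PP and DP held under every alternative that could be fitted, with log2 FC between 3.02 and 4.58. Per counted length the 3 were alike in N, at 15.5, 16.4 and 19.0 RPKM, and between 0.902 and 1.55 RPKM in PP and DP.

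Voltage-gated calcium channels of the set were those of the pore-forming genes Cacna1a (P/Q-type), Cacna1c and Cacna1d (L-type) and of the auxiliary subunit gene Cacna2d1. Cacna1a (circ_006338) had 0 counts in all 3 PP libraries, 3, 5 and 7 counts in DP, and 15, 24 and 37 counts in N. In CPM this was 0.340, 0.617 and 0.870 in DP and 6.65, 2.79 and 6.04 in N. All N libraries were above all DP libraries, whereas the limit of 3 counts in single PP libraries, 0.485 to 1.39 CPM, reaches past DP values. It was at least 21.0-fold higher in N than the limit of 3 counts over the PP libraries allows (adjusted p = 0.000191), and 8.48-fold higher in N than in DP (log2 FC 2.97 ± 0.50, adjusted p = 0.00120). Both calls held under every alternative that could be fitted, and the difference between DP and PP did not pass (adjusted p = 0.177).

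Cacna2d1 was one of only 2 genes with a circRNA called between DP and PP. Exons 11 to 21 (circ_005013) had 0.779, 0.970 and 0.930 CPM in PP, 4.87, 3.82 and 4.47 CPM in DP, and 3.10, 10.9 and 9.96 CPM in N. All DP and N libraries were above all PP libraries, and N replicate 1 was below the DP range. The log2 FC was 2.26 ± 0.51 for DP versus PP (adjusted p = 0.0332) and 3.21 ± 0.49 for N versus PP (adjusted p = 0.000227). The first of these was lost without PP replicate 1, PP replicate 2, any DP library or N replicate 3, with total counts and with the replicate block, while the second held under every alternative that could be fitted. Near the gene's start, exons 2 and 3 (circ_005011) had 1.04, 0 and 0.465 CPM in PP, 2.27, 0.740 and 2.73 CPM in DP, and 1.77, 3.26 and 1.47 CPM in N, and were higher in N than in PP by 2.39 ± 0.84 (adjusted p = 0.0460, lost without PP replicate 2, DP replicate 1, DP replicate 3, N replicate 1 or N replicate 2, and with the replicate block). For exons 4 to 6 (circ_005012) the log2 FC was 1.11 ± 0.62 (adjusted p = 0.211).

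The other circRNA called between DP and PP was of Atp2b2, a plasma membrane calcium pump. This circle of 1 exon (circ_005271) had 1, 2 and 0 counts in PP, 18, 12 and 29 in DP, and 12, 32 and 20 in N. In CPM it was at most 0.323 in PP, 2.04, 1.48 and 3.60 in DP, and 5.32, 3.72 and 3.27 in N, with DP and N overlapping each other and not PP. The ratio of DP to PP was 9.59, with a counting interval of 3.13 to 47.8 (log2 FC 3.18 ± 0.67, adjusted p = 0.0274, lost without PP replicate 1, PP replicate 2, DP replicate 1 or DP replicate 3, with total counts and with the replicate block). That of N to PP was 15.3, with an interval of 5.01 to 76.2 (log2 FC 3.90 ± 0.65, adjusted p = 0.000473), and this call held under every alternative that could be fitted. The related pump Atp2b1 (circ_000732) was level in PP and DP, at means of 1.17 and 1.13 CPM, and had 1.33, 4.65 and 3.76 CPM in N, with a log2 FC of 1.54 ± 0.49 for N versus PP (adjusted p = 0.0286, lost without PP replicate 1, PP replicate 2, N replicate 2 or N replicate 3, with DESeq2, with the replicate block and with only the 2 cell types fitted) and of 1.66 ± 0.43 for N versus DP (adjusted p = 0.0143, lost without DP replicate 1, N replicate 2 or N replicate 3).

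Of the L-type channel genes, Cacna1c circ_005296 had 0.519, 1.13 and 3.25 CPM in PP, 0.566, 0.493 and 0.621 CPM in DP, and 3.10, 2.56 and 2.78 CPM in N. PP replicate 3 was again level with N. In this circle the log2 FC was 2.25 ± 0.50 for N versus DP (adjusted p = 0.00538, held without any 1 library) and 0.99 ± 0.51 for N versus PP (adjusted p = 0.172). Cacna1d, the other Cacna1c circle and Kcnma1, which encodes a potassium channel opened by calcium and voltage, had at most 12 counts in any library and were left out by the filter. In the edgeR fit without the filter, Cacna1c circ_005294 was higher in N than in DP and PP (adjusted p = 0.00229 and 0.00624). So was Kcnma1 (0.0121 and 0.0483), whereas Cacna1d did not pass (0.123 and 0.237). The potassium channel gene Kcnh7 gave circ_003825 with 7.27, 3.88 and 4.65 CPM in PP, 2.61, 2.71 and 2.98 CPM in DP, and 2.22, 2.56 and 5.23 CPM in N. Its DP libraries were all below its PP libraries, and N overlapped both. Neither of its circles was called in any comparison, with -0.92 ± 0.38 for DP versus PP in circ_003825 (adjusted p = 0.343).

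Whether circles of 1 gene moved apart was asked for N versus PP with edgeR's test of differential use within a gene (diffSpliceDGE). Of 26 circRNAs of 9 genes, 0 passed, with 0 at an unadjusted p under 0.05, where 2 of 3054 circRNAs of such genes passed over the whole table (0.0655%). The lowest unadjusted p was that of Cacna2d1 circ_005012, 0.0860, with a log2 FC of -0.96 relative to its gene. No other tool was run for this question, and circles that overlap can share reads in it.

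The rule of the set named genes and used no lengths of genes, introns or circles. Taking 1 median per gene, the 25 genes had a median length of 450500 bases (quartiles 277300 to 513300), beside 67210 bases (34150 to 127500) for 2717 other genes with a circRNA. The intron before the circle had a median of 41980 bases (11090 to 77280), beside 6557 (2309 to 18040), and the intron after it 31730 bases (11490 to 78750), beside 4793 (1926 to 12050). Counted lengths were alike, at a median of 439 bases beside 460.5, as were the exons in the circle, at 2.5 beside 3. On the genome, introns included, the circles spanned a median of 10750 bases, beside 5010. For Slc8a1 the intron before the common first exon measured 202215 bases, and the introns after the 3 closing exons 2762, 18999 and 19839 bases.

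Other genes of the same pathways were counted from longer lists of 74 presynaptic, 85 postsynaptic and 88 channel and transport genes with none of the 54 in them. Of 29 tested circRNAs of other presynaptic genes, 13 were higher and 1 was lower in N than in PP, 9 were higher and 0 lower in N than in DP, and 2 were higher and 0 lower in DP than in PP. Of 65 of other postsynaptic genes, 16 were higher and 14 lower in N than in PP, 12 and 14 in N than in DP, and 1 and 0 in DP than in PP. Of 19 of other channel and transport genes, 7 were higher and 4 lower in N than in PP, 5 and 1 in N than in DP, and 0 and 0 in DP than in PP. Of all 4406 circRNAs tested, 13.6% were higher and 14.4% lower in N than in PP. The shares were 9.03% and 9.80% for N versus DP, and 1.48% and 0.386% for DP versus PP. The 14 postsynaptic circRNAs lower in N were of only 2 scaffold genes, Tanc1 and Magi1. The median log2 FC for N versus PP was 1.17, 0.24 and 0.27 in the order of the lists, beside 1.10, 1.56 and 2.80 for the tested presynaptic, postsynaptic and channel circRNAs of the set. Slc8a2, the related exchanger gene, had a circRNA (circ_005809) that was higher in N than in PP by 3.68 ± 0.57 (adjusted p = 0.000243).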

How the data were processed

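PP, DP and N were sorted from embryonic day 14.5 cortex, with 3 libraries each. Per the study's methods, circRNAs were found from back-splice reads of RNase R-treated, strand-specific libraries aligned to mm9, and reads over the exons of each circRNA were counted with featureCounts (Subread 1.6.0 in the submitters' processing notes). The deposited table holds raw counts, kept as the authors gave them, and no per-sample column was left out (0).

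From these, CPM were computed with TMM library sizes, RPKM from the counted length, and log2 FC with edgeR 4.0.16 (R 4.3.3): filterByExpr, quasi-likelihood F test, 1 model over the 9 libraries, Benjamini-Hochberg adjustment over 4406 circRNAs. The SE is the absolute log2 FC divided by the square root of F. The procedure was tested on simulated data.

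Given with values in every library are Slc8a1; per comparison, role and direction, the 5 largest changes with an adjusted p under 0.05, a mean log2 CPM of at least 2 and no overlap; calls between DP and PP; and the 3 of highest RPKM per role. Other circRNAs were chosen for values after these were seen. The members and lists were chosen with earlier results of these data known. Alternatives were DESeq2 1.42.0, RLE or total-count scaling, other filters, a robust fit, a replicate block and left-out libraries or entries.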

Additional observations from a re-analysis of the deposited data

How the results depend on the processing

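No call reversed its direction under any alternative. Of the 42 calls on circRNAs of the set, 23 held in every analysis that left out 1 library (16 of 22 for N versus PP, 7 of 18 for N versus DP), and 13 held under every other alternative that could be fitted. Calls on circles that overlap, such as those of Slc8a1, are not independent of each other. Total counts lost 29 calls, DESeq2 lost 5 and leaving out N replicate 1 lost 2. For the set, counts of circRNAs higher and lower were 20 and 2 for N versus PP. They were 15 and 3 for N versus DP, and 2 and 0 for DP versus PP. All 4406 circRNAs tested gave 599 and 636, 398 and 432, and 65 and 17 in the same order. With total counts the set had 8 and 0, 5 and 0, and 0 and 0. All tested then had 211 and 438, 84 and 323, and 21 and 1. With at least 10 counts in every library, which kept only Dlgap4 of the set, its counts were 1 and 0, 1 and 0, and 0 and 0. All 1262 tested then had 162 and 121, 85 and 49, and 8 and 4. Without the filter the set had 30 and 2, 26 and 3, and 2 and 0. The whole table of 5281 had 696 and 728, 452 and 496, and 67 and 17. Fitting only the 2 cell types compared gave the set 13 and 1, 16 and 4, and 1 and 0. All tested had 388 and 347 of 3620, 484 and 493 of 4182, and 71 and 14 of 3988. Without PP replicate 3 and N replicate 1 together the set had 28 and 4, 26 and 4, and 6 and 0. All 4714 tested then had 1018 and 970, 784 and 816, and 428 and 231. DESeq2 gave the set 24 and 2, 22 and 3, and 2 and 0. Over all 5281 circRNAs it gave 662 and 664, 454 and 433, and 84 and 32. Over the analyses that left out 1 library, the ranges for the set were 15 to 27 and 2 to 4, 9 to 24 and 0 to 4, and 0 to 2 and 0. Over all circRNAs tested (4581 to 4729) they were 490 to 847 and 491 to 791 for N versus PP. For N versus DP they were 229 to 617 and 298 to 622, and for DP versus PP 32 to 125 and 1 to 58. The cause of these differences was not tested. The within-gene count stayed at 0 wherever it could be made.

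With the replicate block the counts of the set were 17 and 2, 12 and 3, and 0 and 0, and 8 calls were lost. All 4406 tested then had 523 and 538, 317 and 375, and 43 and 5. Whether libraries of the same number were sorted together is not given in the sources used here. The deviations of same-numbered libraries from their group means correlated at -0.261 to 0.303 (mean -0.0384), beside a mean of 0.0276 for different numbers. So few libraries cannot decide whether they were paired. Low counts limited the set too. The filter left out 16 of its 50 circRNAs, beside 875 of all 5281 of the table.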
